A study of Mus musculus with 12 samples.

Results

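The cytochrome P450 (Cyp) and UDP-glucuronosyltransferase (Ugt) genes of the mouse olfactory mucosa were examined in animals with and without enhancer A (eA). Members were taken by symbol alone: Cyp followed by a family number, letters and a gene number, or Ugt followed by a digit, a letter and a number, with a closing letter allowed and pseudogene suffixes left out. This gave 120 genes, 99 Cyp and 21 Ugt, of 46297 gene rows. The deletion group held 6 male mice at postnatal day 30 lacking the element, a stretch of 912 bp on chromosome 7 (102509701 to 102510612, read as GRCm38), and the wildtype group held 6 male mice of that age with the element. Both groups carry the strain label 129S6;C57BL/6J. Each animal gave 1 library of ribosome-depleted total RNA from dissected olfactory mucosa, named DEL1 to DEL6 and WT1 to WT6 here. The labels do not say whether the deletion was on both chromosomes or whether the animals were littermates. The series title presents the element as an enhancer of class I odorant receptors, while the enzymes described here are made largely by other cells of the same tissue.

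Cytochrome P450 enzymes are haem proteins that insert oxygen into drugs, odorants, fatty acids, steroids and retinoids, using electrons passed on by P450 oxidoreductase. UDP-glucuronosyltransferases then join glucuronic acid to such products, which makes them soluble and easier to export. In the olfactory mucosa both families are made mainly by supporting (sustentacular) cells and Bowman's gland cells, where they clear odorants and inhaled toxicants, and Cyp2g1, the marker of the set, is an olfactory-specific member.

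No Cyp or Ugt gene passed the test in either direction. Of the 47 members with a mean normalized count of at least 10, the level set for testing, 0 were higher and 0 lower in the deletion at an adjusted p under 5% (limma, Benjamini-Hochberg over 19373 genes). Of all tested genes 0.372% were called, 0.0310% as higher and 0.341% as lower in the deletion. The smallest adjusted p of any member was 0.744 (limma). On recovered reads, edgeR called 0 of 46 members and DESeq2 0 of the 115 members to which it gave an adjusted p. At an unadjusted p under 0.05 (limma) stood 6 members, 3 higher and 3 lower, which is 12.8% of those tested. Of all tested genes 6.68% reached that level, 3.49% higher and 3.20% lower. Among all 12 libraries, 0 tested members had groups that did not overlap, against 0.588% of all tested genes, 0.145% higher and 0.444% lower. Estimates were positive for 29 members and negative for 18, and 61.7% positive compares with 52.6% of all tested genes. With every gene kept whatever its level, 36 of 120 estimates were positive and 84 negative (limma), and DESeq2 gave 34 positive and 86 negative. The median log2 change over the 120 members was then -0.30 by limma and -0.73 by DESeq2, against -0.12 and -0.16 over all genes. All genes were not matched to the members in level. Over the 47 tested members the median was 0.037, against 0.009 over all tested genes (limma). The medians over 120 members include the other 73, which were too low to test. Their summed normalized counts were highest in WT2 and WT3, at 855 and 659, and these genes are described separately.

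Library totals ran from 13011763 to 23039733 reads. In 4 libraries the satellite gene Gm10800 took over 1% of reads (DEL3 4.50%, DEL6 2.78%, WT2 7.80% and WT3 7.01%), against at most 0.885% in the other 8. For the members at an unadjusted p under 0.05 and some others, the value in the 8 libraries with little Gm10800 is given beside that from all 12. Among those 8, Gm10800 took 0.00133% to 0.0103% of reads in deletion and 0.0790% to 0.885% in wildtype libraries. The groups thus still differed in Gm10800 there, without overlap, and values from the 8 libraries are not free of that difference. The groups were also compared on 9 supporting cell genes other than Cyp2g1: all 9 were tested and 0 were called by limma. Their summed normalized count was 73640 to 94290 in deletion libraries and 72121 to 96494 in wildtype libraries. The largest parts of that sum were Gpx6, Cbr2 and Sult1c1, named after these values. In bulk tissue, fewer cells of a type and less RNA per cell cannot be told apart.

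The set was dominated by a pair of neighbouring genes, Cyp2a5 and Cyp2g1. Cyp2a5 (ENSMUSG00000005547.14), a coumarin and nicotine hydroxylase, was the 5th most abundant gene of the whole table by mean normalized count and made up 56.0% of the summed signal of the members. Its near-copy Cyp2a4, known as a steroid hydroxylase in mouse liver, lies on the same strand of chromosome 7. Per kb of exon the mean level of Cyp2a5 was 1672 times that of Cyp2a4. The letters of both genes are shown because this contrast in level sits between nearly identical sequences. The 250 bases before the RefSeq start of Cyp2a5 (chr7:26835089-26835338, plus strand, GRCm38.p6) and of Cyp2a4 (chr7:26306942-26307191, plus strand, GRCm38.p6) follow, with capitals at the bases that differ.
Cyp2a5 promoter: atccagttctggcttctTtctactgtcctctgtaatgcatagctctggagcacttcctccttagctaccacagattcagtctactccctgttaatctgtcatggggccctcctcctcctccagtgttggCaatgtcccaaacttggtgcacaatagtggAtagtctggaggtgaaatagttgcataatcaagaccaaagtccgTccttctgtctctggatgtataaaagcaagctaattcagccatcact
Cyp2a4 promoter: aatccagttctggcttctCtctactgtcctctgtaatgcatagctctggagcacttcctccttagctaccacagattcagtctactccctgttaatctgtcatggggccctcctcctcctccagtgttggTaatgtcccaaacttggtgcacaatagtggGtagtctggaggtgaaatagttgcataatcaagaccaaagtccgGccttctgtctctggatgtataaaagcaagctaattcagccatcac
Aligned over 249 bases, these promoters differed at 4 and were 98.4% identical.

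The coding sequences of both genes are 1485 bases long and differed at 23 of them, an identity of 98.5%. The 120 coding bases with the most differences, 6 in all, are shown because they are where reads of the pair can best be told apart. They come from GENCODE M21 transcripts on GRCm38 and are joined across introns, between chr7:26837147-26838882 for Cyp2a5 and chr7:26308984-26310720 for Cyp2a4, plus strand, with capitals again at differing bases.
Cyp2a5 coding: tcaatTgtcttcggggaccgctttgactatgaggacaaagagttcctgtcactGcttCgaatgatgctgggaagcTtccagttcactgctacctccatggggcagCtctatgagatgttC
Cyp2a4 coding: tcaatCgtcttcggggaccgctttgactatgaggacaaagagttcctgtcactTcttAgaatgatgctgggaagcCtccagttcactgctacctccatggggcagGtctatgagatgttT
Of all runs of 50 bases in the Cyp2a4 transcripts, 36.1% also occur in Cyp2a5, and 28.1% of those of Cyp2a5 occur in Cyp2a4. How the authors' counting treated reads that match both genes is not stated in the labels or headers. The level of Cyp2a4 is therefore less certain than that of Cyp2a5.

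Cyp2a5 had a lowest, median and highest normalized count of 120126, 132983 and 152266 in deletion libraries, against 117182, 128832 and 156377 in wildtype libraries. The groups covered almost the same range, and the highest library of all, WT4, was a wildtype one. The log2 change of deletion over wildtype was 0.04 ± 0.11 (SE), with a 95% interval from -0.20 to 0.28 (limma adjusted p 0.949). Cyp2a4 had 45.1, 73.5 and 99.4 in deletion libraries and 33.2, 60.6 and 78.2 in wildtype libraries, with 3 deletion libraries above every wildtype one. Its log2 change was 0.29 ± 0.23 (SE), and the interval, from -0.19 to 0.77, was wide (limma adjusted p 0.803).

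Cyp2g1 (ENSMUSG00000049685.8) was the 9th most abundant gene of the table and gave 26.7% of the summed member signal. It had 59266, 65087 and 75899 normalized counts (lowest, median, highest) in deletion libraries, against 55518, 58412 and 68954 in wildtype libraries. The groups overlapped, with DEL5 above all wildtype libraries and WT4 and WT5 above the other 5 deletion libraries. The 95% interval of its log2 change ran from -0.09 to 0.31, or from -6.04% to 23.8% relative to wildtype. Across the 8 libraries with little Gm10800 (1% of reads or less) the log2 change was again 0.11, with means of 68256 ± 5394 in 4 deletion and 63422 ± 6169 in 4 wildtype libraries (SD). Together Cyp2a5 and Cyp2g1 held 80.9% to 83.6% of the member signal in deletion libraries and 82.3% to 83.3% in wildtype libraries.

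Below this pair stood Cyp2f2, an oxidase of naphthalene and other inhaled aromatics, and Cyp1a2, which oxidises aromatic amines. Cyp2f2 had 14909.8, 17558 and 19981 normalized counts in deletion libraries, against 13964, 15486 and 18202 in wildtype libraries. Its 2 highest values were DEL5 and DEL6, and its log2 change was 0.15 ± 0.08 (SE; limma adjusted p 0.751), or 0.09 in the 8 libraries with little Gm10800. Cyp1a2 had 6693, 7301 and 7740.0 in deletion libraries, against 5585, 6399 and 7572 in wildtype libraries. All 6 deletion libraries lay above the wildtype mean, but only DEL3 lay above every wildtype library, and the 3 lowest wildtype values were WT1, WT2 and WT3. The log2 change was 0.18 ± 0.08 (SE), with an unadjusted p of 0.0355 and an adjusted p of 0.744 (limma). In the 8 libraries with little Gm10800 it was 0.08 (limma unadjusted p 0.411).

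**Figure D1:**
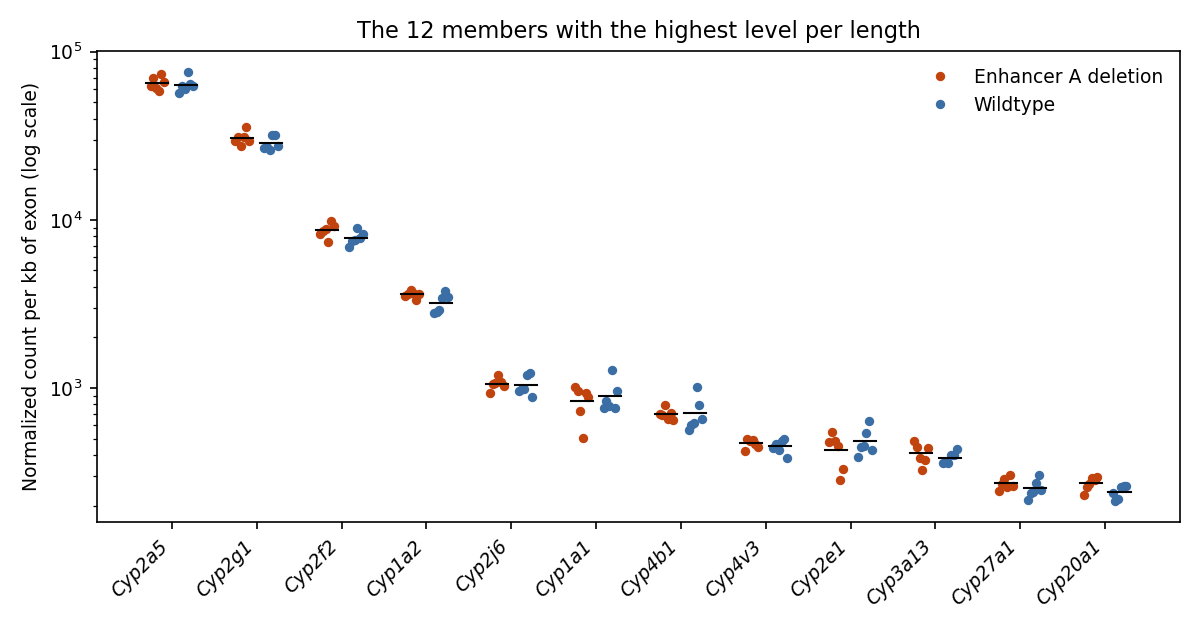
Normalized count per kb of union exon length (log axis) for the 12 members with the highest level per length, with 1 point per library, deletion left of wildtype for each gene, and a bar at each group mean. Levels fall from 64978 per kb in deletion and 63386 per kb in wildtype libraries for Cyp2a5 to 272 and 241 per kb for Cyp20a1, and the groups overlap for every gene.

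The remaining members at the top of the ranking per kb were Cyp2j6, Cyp1a1, Cyp4b1, Cyp4v3, Cyp2e1, Cyp3a13, Cyp27a1 and Cyp20a1. Cyp2j6, of the arachidonic acid epoxygenase subfamily Cyp2j, averaged 3834 ± 316 normalized counts in deletion and 3743 ± 506 in wildtype libraries (SD, n = 6 each), a log2 change of 0.04. Cyp1a1, the classic target gene of the aryl hydrocarbon receptor, averaged 2337 ± 530 in deletion and 2498 ± 567 in wildtype libraries. DEL4 was the lowest of all at 1409 and WT4 the highest at 3576. Cyp2e1, an ethanol oxidase, averaged 927 ± 216 in deletion and 1042 ± 193 in wildtype libraries, with DEL5 and DEL6 below every wildtype library. Cyp3a13, a drug oxidase, averaged 1207 ± 169 in deletion and 1138 ± 89.6 in wildtype libraries, with the lowest value in DEL4 and the 3 highest in DEL1, DEL2 and DEL6.

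Intervals of the abundant members were narrow. The 9 members with a mean of at least 1000 had 95% intervals between -0.45 and 0.34 in log2 change, all inside 1.5-fold in either direction. Of the 25 members with a mean of at least 100, 23 had such intervals, and the 2 that did not were Cyp2b10 and Ugt1a7c. Over all 47 tested members the count was 28, against 74.0% of all tested genes. Of the 22 tested members with a mean under 100 it was 5, and the share of all genes at that level was not computed. Within-group SDs of the log2 values ran from 0.111 for Cyp39a1 to 1.86 for Cyp2b9. Their median was 0.300 over tested members and 0.186 over all tested genes. Neither comparison with all genes was matched for level. A mean of at least 100 was reached by 12516 of 19373 tested genes and by 25 of 47 tested members.

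Estimates of the abundant members leaned towards the deletion by a small amount. Of the 25 members with a mean of at least 100, 22 had a positive and 3 a negative log2 change, with a median of 0.075. Of all 12516 genes at that level, 62.1% were positive and the median was 0.028. Among the 22 tested members with a mean under 100, 7 were positive and 15 negative, with a median of -0.11. Members share cells and libraries, so these are counts and not a test. The summed signal of all 120 members was 243210 ± 17680 in deletion and 232390 ± 21616 in wildtype libraries (SD, n = 6 each), or 1.42% ± 0.117 and 1.34% ± 0.115 of reads. The ranges overlapped, from 226324 to 272927 in deletion and from 209971 to 270499 in wildtype libraries.

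**Figure D2:**
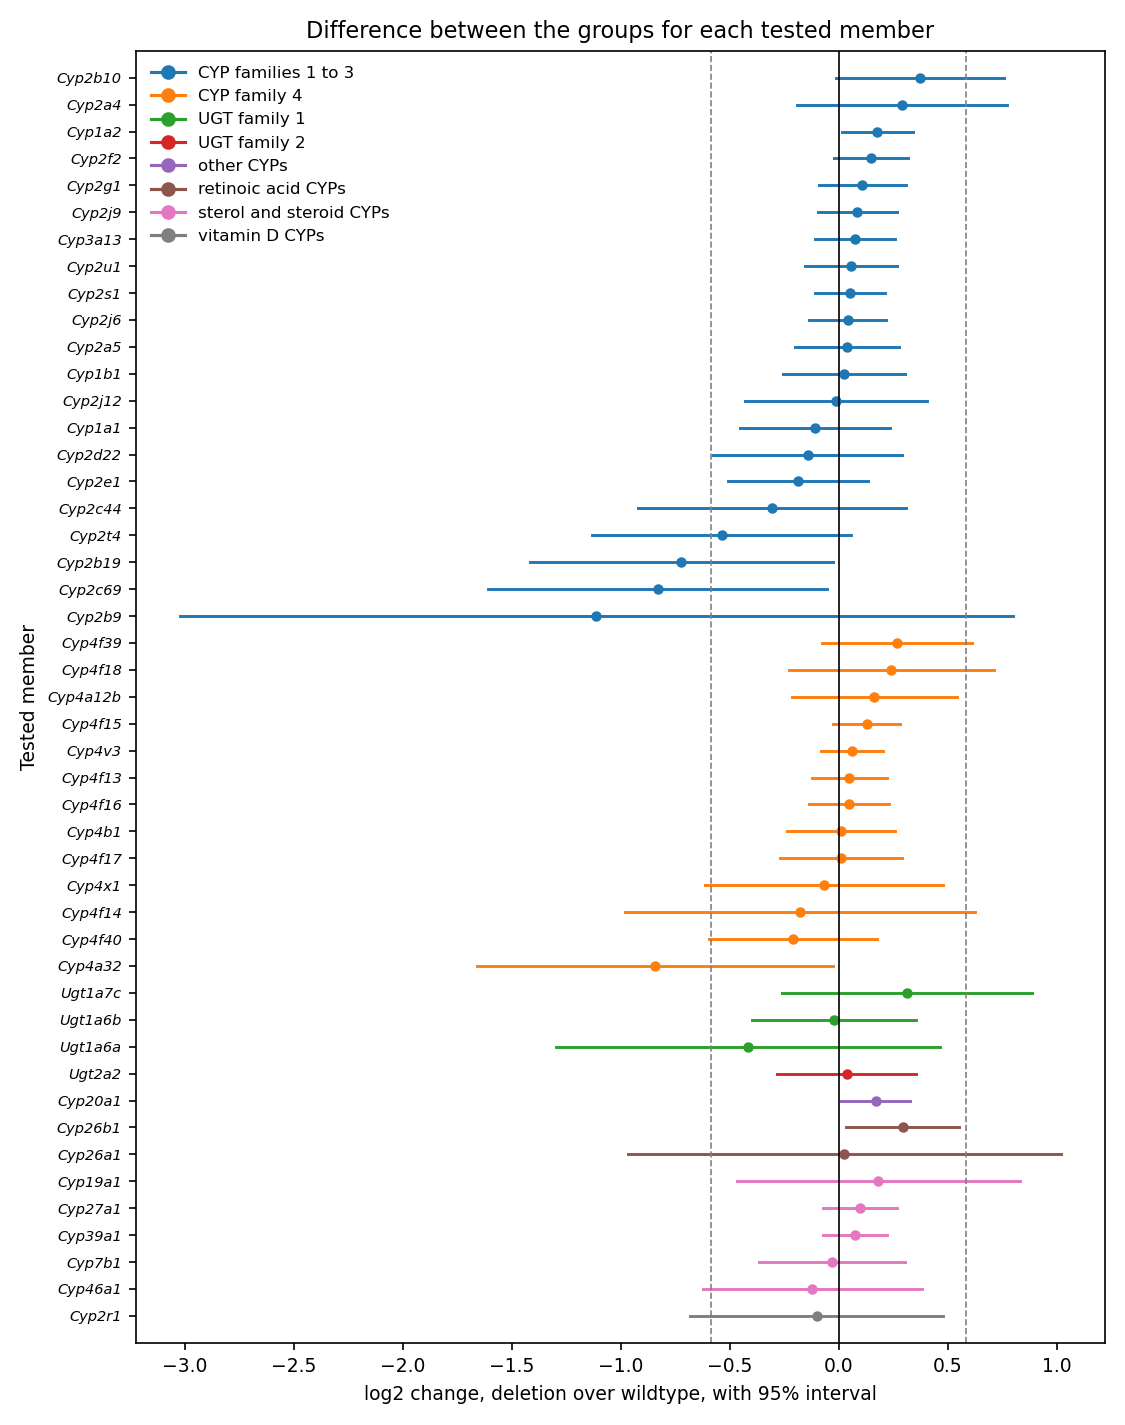
log2 change of deletion over wildtype (points) with its 95% limma interval (lines) for the 47 tested members, coloured by role group. The solid line marks no change and the dashed lines 1.5-fold in either direction. Points of abundant members such as Cyp2a5 and Cyp4v3 lie close to 0, while the estimates farthest from 0 belong to Cyp2b9, Cyp4a32 and Cyp2c69, which also have wide intervals.

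CYP families 1 to 3, which oxidise mostly foreign compounds, held 60 members, of which 21 were tested, 12 with a positive and 9 with a negative estimate. At an unadjusted p under 0.05 stood 1 higher gene, Cyp1a2, and 2 lower genes, Cyp2b19 and Cyp2c69 (limma). Cyp2b19, known in mouse as a keratinocyte arachidonic acid epoxygenase, had 7.21, 12.01 and 22.8 normalized counts in deletion libraries and 8.45, 20.7 and 35.0 in wildtype libraries (lowest, median, highest). The highest deletion library was DEL3 and the highest wildtype libraries were WT2 and WT3, all with over 1% of reads in Gm10800. Its log2 change was -0.72 ± 0.33 (SE; limma unadjusted p 0.0430, adjusted p 0.744), and in the 8 libraries with little Gm10800 it was -0.62 (limma unadjusted p 0.0886).

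Cyp2c69, a member of the mouse Cyp2c cluster, had 2.78, 7.20 and 12.6 normalized counts in deletion libraries and 9.25, 10.5 and 26.9 in wildtype libraries. The value of 26.9 was WT2 alone, and the next wildtype library stood at 13.7. The log2 change was -0.83 ± 0.37 (SE; limma unadjusted p 0.0382), and 54.3% of the runs of 50 bases in its transcripts occur in other genes. It was the 1 member at an unadjusted p under 0.05 in the 8 libraries with little Gm10800, with a log2 change of -0.94 (limma unadjusted p 0.0241), a level that 2.95% of all tested genes reached there. Cyp2t4 had 6.48, 8.98 and 13.5 in deletion libraries and 7.40, 13.8 and 18.9 in wildtype libraries, a log2 change of -0.54 (limma unadjusted p 0.0738).

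Cyp2b9 and Cyp2b10, drug oxidases of the same gene cluster that phenobarbital induces in mouse liver, varied between animals in a way that the groups did not follow. Cyp2b9 was at 0 in DEL4 and WT1, 1.14 in DEL3 and 2.99 in DEL6, and between 17.3 and 26.1 in the other 8 libraries. No library lay between these sets. Cyp2b10 stood at 644 in DEL3, 595 in DEL4, 548 in DEL6 and 471 in WT1, the 4 highest values of that gene, and at 246 to 423 in the other 8 libraries. Of these 4 libraries, DEL3 and DEL6 had over 1% of reads in Gm10800 and DEL4 and WT1 did not.

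As group values, Cyp2b10 averaged 479 ± 137 normalized counts in deletion and 363 ± 72.8 in wildtype libraries (SD, n = 6 each), and Cyp2b9 averaged 9.70 ± 9.17 in deletion and 18.3 ± 9.61 in wildtype libraries. Their log2 changes were 0.37 ± 0.18 and -1.11 ± 0.90 (SE), with adjusted p of 0.744 and 0.805 (limma). For Cyp2b10 the log2 change was 0.09 in the 8 libraries with little Gm10800, and for Cyp2b9 it was -0.21 there. Leaving out WT1 gave -1.86 for Cyp2b9, and leaving out DEL4 gave -0.58. Cyp2b9 shared 10.8% of its runs of 50 bases with Cyp2b13, and Cyp2b10 shared 6.94% with that gene. The labels give both groups a mixed strain name and no genotype at these genes.

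**Figure D3:**
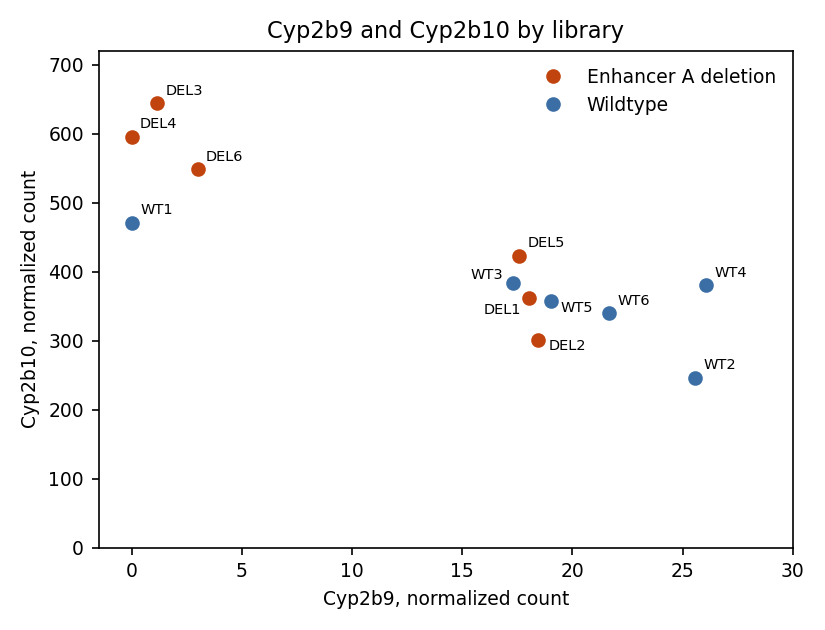
Normalized count of Cyp2b10 (vertical axis) against Cyp2b9 (horizontal axis), 1 labelled point per library, deletion and wildtype in separate colours. DEL3, DEL4, DEL6 and WT1 stand at the upper left, with Cyp2b9 at 2.99 or less and Cyp2b10 at 471 or more, apart from the other 8 libraries.

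CYP family 4 enzymes hydroxylate fatty acids and eicosanoids, and 13 of its 20 members were tested, 9 with a positive and 4 with a negative estimate. Cyp4v3, a fatty acid hydroxylase, had 1616, 1805 and 1905 normalized counts in deletion libraries and 1469, 1716 and 1905 in wildtype libraries. It was among the steadiest members, with a log2 change of 0.06 and an interval from -0.08 to 0.20. Cyp4b1, which oxidises fatty acids and furan toxicants, averaged 1576 ± 116 in deletion and 1593 ± 384 in wildtype libraries (SD, n = 6 each), with WT4 at 2285 the highest value and WT1 at 1265 the lowest. Its log2 change of 0.01 turned to -0.02 by edgeR and DESeq2 and to -0.10 in the 8 libraries with little Gm10800.

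Cyp4a32 was the family 4 gene with the lowest estimate. It had 2.24, 8.45 and 11.7 normalized counts in deletion libraries and 8.45, 10.6 and 25.3 in wildtype libraries, with the highest values in WT3 and WT2. The log2 change was -0.84 ± 0.38 (SE; limma unadjusted p 0.0439), and -0.69 in the 8 libraries with little Gm10800 (limma unadjusted p 0.126). Of its runs of 50 bases, 43.8% occur in other genes, mostly in Cyp4a10.

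Sterol and steroid enzymes held 12 members and 5 were tested: Cyp27a1, Cyp39a1, Cyp7b1, Cyp46a1 and Cyp19a1. Cyp27a1, the mitochondrial sterol 27-hydroxylase of bile acid synthesis, averaged 589 ± 46.7 normalized counts in deletion and 552 ± 67.3 in wildtype libraries (SD, n = 6 each), a log2 change of 0.10. The summed signal of these 12 genes was 1153 ± 83.7 in deletion and 1116 ± 67.0 in wildtype libraries. Of 3 vitamin D enzymes only Cyp2r1, the vitamin D 25-hydroxylase, was tested, with 9.02, 17.9 and 30.8 in deletion libraries and 15.3, 20.3 and 22.9 in wildtype libraries. The deletion values surrounded the wildtype ones, and their highest, DEL3 and DEL6, were libraries with over 1% of reads in Gm10800. The log2 change of -0.10 had an interval from -0.68 to 0.48, and in the 8 libraries with little Gm10800 it was -0.33.

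Cyp26b1, which breaks down retinoic acid, had the smallest limma p of the tested members. It stood at 179, 231 and 243 normalized counts in deletion libraries, against 131, 183 and 228 in wildtype libraries. Of the 6 deletion libraries, 5 lay above the wildtype mean and 3 above every wildtype library, while DEL4 lay at the lowest deletion value. The log2 change was 0.29 ± 0.12 (SE), with an unadjusted p of 0.0304 and an adjusted p of 0.744 (limma), and it was 0.29 as well in the 8 libraries with little Gm10800 (limma unadjusted p 0.112). The other tested retinoic acid gene, Cyp26a1, had 4.48 to 18.5 in deletion and 3.61 to 32.3 in wildtype libraries and a log2 change of 0.03, and was chosen for naming after these values.

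Cyp20a1, a P450 without an established substrate, had 530.1, 633 and 681 normalized counts in deletion libraries and 487, 565 and 598 in wildtype libraries. DEL3, DEL4, DEL5 and DEL6 lay above every wildtype library, and the lowest values were WT2 and WT3. The log2 change was 0.17 ± 0.08 (SE; limma unadjusted p 0.0390, adjusted p 0.744), and 0.06 in the 8 libraries with little Gm10800 (limma unadjusted p 0.471).

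Glucuronosyltransferase genes gave 0.303% of the member signal as counted. Several of them share exons, and how reads in shared exons were counted is not stated, so that share is uncertain. Of the 21, only Ugt1a7c, Ugt1a6a, Ugt1a6b and Ugt2a2 were tested, 2 with a positive and 2 with a negative estimate. Ugt2a2 and Ugt2a1, the olfactory glucuronosyltransferases, are annotated on chromosome 5 with separate first exons and common last exons. Their coding sequences, each of 1587 bases, end in an identical run of 872 bases. Of the exonic bases of Ugt2a1 98.8% are shared with other annotated genes on the same strand, which leaves 30 of its own, and Ugt2a2 has 140 of its own.

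Ugt2a2 had 233, 259.5 and 441 normalized counts in deletion libraries and 205, 277 and 339 in wildtype libraries. The highest was DEL4, and the next deletion library stood at 279. Its log2 change was 0.04 ± 0.15 (SE; limma adjusted p 0.963). Ugt2a1 had 4.51, 10.3 and 13.5 in deletion libraries and 5.55, 8.27 and 10.1 in wildtype libraries, and its mean was under the level for testing. With so few bases of its own, and a counting rule not stated in the labels or headers, the low value of Ugt2a1 cannot be read as the level of its transcript. The same limit holds for the value of Ugt2a2, which shares 94.5% of its exonic bases.

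Family 1 genes differ by their first exon and share the others, so 53.7% of the runs of 50 bases of Ugt1a7c occur in other genes. Ugt1a7c had 135, 431 and 489.9 normalized counts in deletion libraries and 207, 258 and 371 in wildtype libraries. DEL1, DEL2, DEL5 and DEL6 lay above every wildtype library, while DEL4 was the lowest of all and DEL3, at 247, lay inside the wildtype range. The log2 change was 0.31 ± 0.27 (SE), with an interval from -0.26 to 0.89 (limma adjusted p 0.812). Without DEL4 it was 0.57 (limma adjusted p 0.467), and without DEL5 it was 0.20. The summed signal of the 9 family 1 genes was 443 ± 148 in deletion and 367 ± 77.1 in wildtype libraries (SD, n = 6 each). Ugt3a2, the higher of 2 family 3 genes, which use other sugars, had a median of 0 in deletion and 0.462 in wildtype libraries.

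The 73 members too low to test gave 0.105% of the member signal, 75 to 289 reads in deletion and 111 to 635 reads in wildtype libraries. They include 39 of families 1 to 3, among them most Cyp2c, Cyp2d and Cyp3a genes known from liver and intestine. They were highest in the 4 libraries with over 1% of reads in Gm10800. Their summed normalized count was 319 in DEL3, 289 in DEL6, 855 in WT2 and 659 in WT3, against 67.6 to 126 in the other 4 deletion libraries and 117 to 137 in the other 4 wildtype libraries. In those 4 libraries 65 to 72 of the 73 genes had at least 1 read, against 25 to 44 in the other 8. Of all 46297 gene rows, 36565 to 42218 had at least 1 read in those 4 libraries, against 28832 to 33895 in the other 8. More genes with reads in those 4 libraries was thus not particular to the members. Hepatocyte markers were near 0, with a summed normalized count of 5.27 to 16.0 over 4 genes in deletion and 6.50 to 57.9 in wildtype libraries, and 0 of the 4 could be tested. The part in these values of whatever raised Gm10800 was not tested.

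**Figure D4:**
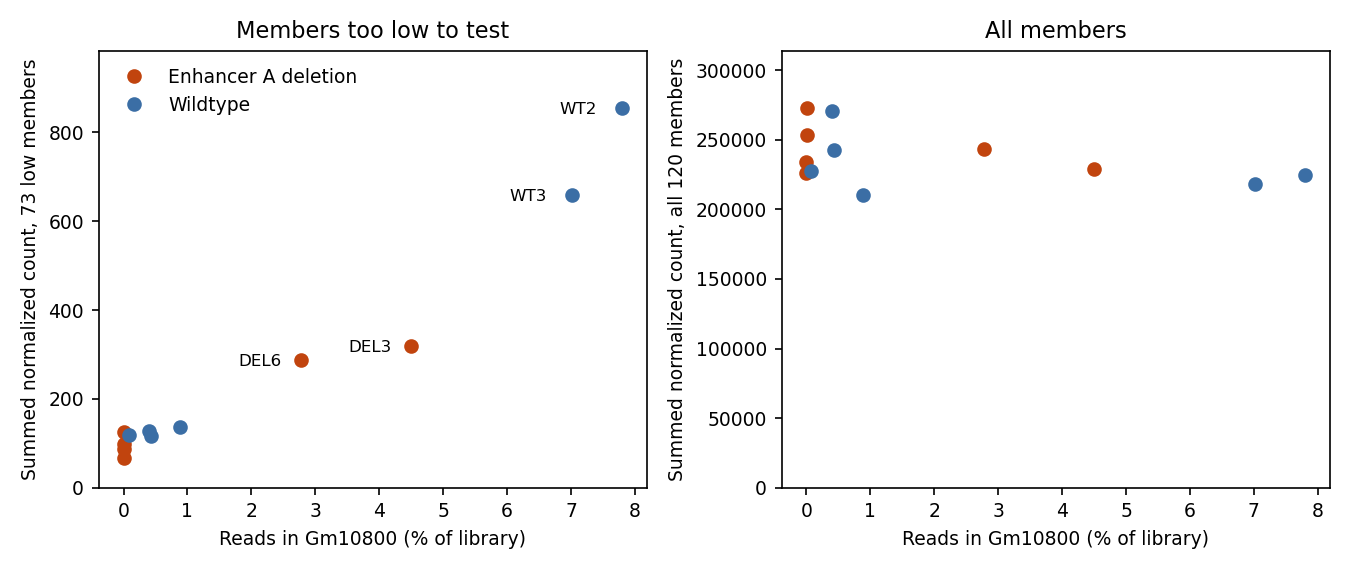
Summed normalized count of the 73 members too low to test (left) and of all 120 members (right) against the percentage of reads in Gm10800, 1 point per library, deletion and wildtype in separate colours, both vertical axes from 0. The 4 libraries with over 1% of reads in Gm10800 have the 4 highest sums on the left, from 289 to 855, and lie within the range of the other libraries on the right.

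On chromosome 7, which carries the deleted element, lie 15 members, and 11 were tested. Of these, 6 estimates were positive and 5 negative, and the median log2 change was 0.037, against 0.039 for the 36 tested members on other chromosomes. The Cyp2a, Cyp2b, Cyp2f, Cyp2g, Cyp2s and Cyp2t genes lie 75.4 to 76.7 Mb before the element, Cyp2t4 nearest. On the other side Cyp2r1 is the nearest tested member, 12.04 Mb away, and Cyp2e1 lies 38.3 Mb away. Both had intervals that included no change.

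RefSeq promoters (GRCm38.p6) were matched by symbol for 95 members, 37 of them tested. In the 250 bases before the start, the letters TATAAA on the gene's own strand were found in 4 of 11 members with the highest level per kb, 6 of 37 tested members and 17 of 58 members not tested, against 8.12% of 27025 promoters. Both printed promoters contain them. The core of the nuclear factor I motif, TTGGC on either strand, was found in 7 of the same 11 members and 24 of 37 tested members. It was also found in 32 of 58 not tested and 41.9% of all promoters. The core of the motif bound by the aryl hydrocarbon receptor, GCGTG on either strand, was found in 3 of 11, 11 of 37, 6 of 58 and 28.2%. Matches to TTGGC and GCGTG can overlap by the letters GC, and a match is a description only.

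Genes that work with the members did not pass the test either. In 6 lists covering electron donors, UDP-glucuronate supply, haem supply and turnover, regulators, other biotransformation enzymes and efflux transporters, 51 genes were tested, 0 were called by limma, 31 estimates were positive and 20 negative, and their median was 0.025 in log2. Por, the P450 oxidoreductase, averaged 10058 ± 694 normalized counts in deletion and 9543 ± 890.4 in wildtype libraries (SD, n = 6 each). Log2 changes were 0.02 for Ugp2, which makes UDP-glucose, -0.03 for Alas1, the first enzyme of haem synthesis, and -0.03 for Ahr, the aryl hydrocarbon receptor. They were 0.09 for Ephx1, the microsomal epoxide hydrolase, and 0.05 for Abcc1, an exporter of conjugates. At an unadjusted p under 0.05 (limma) stood Cyb5b, a cytochrome b5, with a log2 change of 0.13, and Nqo1, a quinone reductase, with -0.22, both chosen for naming after these values.

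Markers of supporting cells, Bowman's glands and other cells of the tissue were measured beside the members. The first of the supporting cell genes, Cbr2, a carbonyl reductase, had a log2 change of 0.07, and the median over 9 genes was 0.071. Of the genes listed for Bowman's glands 6 of 6 were tested, 0 were called by limma, and 3 were positive and 3 negative. Their sum was 104060 to 143530 in deletion and 114560 to 187020 in wildtype libraries, with Sox9 at a log2 change of 0.07. Whether the listed genes are made only in Bowman's glands was not tested. The median log2 change of the gland genes was -0.14. The odorant-binding protein gene Obp1a averaged 10944 ± 6317 normalized counts in deletion and 27271 ± 16674 in wildtype libraries (SD, n = 6 each), a log2 change of -1.35 (limma unadjusted p 0.0104, adjusted p 0.638), with Obp2a at -1.13 and the mucin gene Muc5b at -0.29. For respiratory ciliated cells 6 of 6 genes were tested and 0 called by limma, 2 were positive and 4 negative with a median of -0.09, and the sum was 53995 to 57547 in deletion and 50156 to 59101 in wildtype libraries. At an unadjusted p under 0.05 stood 3 of these 6, all lower in the deletion: Dnah5 at -0.29, Dnah9 at -0.29 and Ccdc39 at -0.16 (limma adjusted p 0.706, 0.717 and 0.661), while Foxj1 was at 0.08. The largest part of the gland sum was Bpifa1, at a mean of 88223 in deletion and 88467 in wildtype libraries (log2 change 0.01). The largest part of the ciliated cell sum was Sec14l3, at 45489 in deletion and 42304 in wildtype libraries (log2 change 0.11). These gland and cilia genes other than Sox9 and Foxj1 were chosen for naming after these values. Of the other lists, 0 genes were called by limma. Mature neurons had 6 of 6 positive estimates (median 0.10, Omp 0.07), immature neurons 0 of 4 (median -0.02, Gap43 -0.01) and horizontal basal cells 3 of 4 (median 0.05, Krt5 0.09). Immune cells had 3 of 4 tested genes positive with a median of 0.09 and Ptprc at -0.20, and endothelium 4 of 4 with a median of 0.22 and Pecam1 at 0.15. The part of cell numbers in the values of the members was not tested.

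The authors' deposited table gave an adjusted p for 58 members, and 0 were under 0.05, the smallest being 0.799, for Cyp1a2. Its log2 changes are of wildtype over deletion and shrunken towards 0, so that in the authors' deposited table Cyp2g1 stood at -0.09 and Cyp1a2 at -0.14. Over all genes, 91 had an adjusted p under 0.05 in the authors' deposited table.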

How the data were processed

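Total RNA of the olfactory mucosa of 12 mice was sequenced, 1 library per animal. GRCm38.p6 as build, STAR 2.6.0 and DESeq2 (no version) appear in the submitters' processing notes. Which program counted reads, with which annotation and strand rule, is not given in the sources used here. Per the file headers, the authors deposited a normalized signal for each gene and library, beside a log2 ratio (wildtype over deletion), its standard error, a test statistic (score) and p-values. Within a library the signal is a whole multiple of what 1 read is worth (at least 99.989% of values within 0.01), so reads were recovered as well.

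Groups were compared by limma 3.58.1 (trend, two-sided) on log2(value + 1) where a gene averaged at least 10, with Benjamini-Hochberg adjustment over all 19373 genes. Adding 1 understates changes of low genes. Fold changes are deletion over wildtype. edgeR 4.0.16 (46 of the members passed its filter) and DESeq2 1.42.0 on recovered reads were alternatives, with other pseudocounts, no filter, a replicate block, 8 libraries with at most 1% of reads in Gm10800, each library left out, and strict symbols. edgeR and limma were tested on simulated data. R 4.3.3, Python 3.11.15, numpy 2.4.6, pandas 2.3.3 and biopython 1.88 were used. Gene positions, exon lengths (the union of exons) and transcripts are from GENCODE M21 (46167 rows matched), promoters from RefSeq. Named were the 12 members with the highest level per kb, any past 5%, the 5 with the smallest p in each direction, Cyp2g1, Ugt2a1, Ugt2a2, Cyp2a4, Cyp2a5 and Cyp1a2, the nearest tested member on each side of the element, the highest member of each role group, and the first gene of each other list with any past 5%. Members and lists were chosen with earlier results of these data known. p-values measure the spread between animals as labelled.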

Additional observations from a re-analysis of the deposited data

Results flagged for a closer look

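Within each group, single libraries were sought whose distance from the next value was most of the group's range, beyond Dixon's 95% limit. Of 52 groups of 6 values, 4 held such a library, and chance gives about 1 in 20. Cyp2b19 stood at 22.85 in DEL3, with the next deletion library at 12.3. Cyp2b9 stood at 0 in WT1, with the next wildtype library at 17.28. Cyp2c69 stood at 26.93 in WT2, with the next wildtype library at 13.73. Ugt2a2 stood at 440.6 in DEL4, with the next deletion library at 278.6.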

How the results depend on the processing

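No member passed 5% over all genes under any alternative run: other pseudocounts, no filter, edgeR, DESeq2, the replicate block, the 8 libraries with little Gm10800, strict symbols, and each of 12 libraries left out. The count at an unadjusted p under 0.05 was 6 with all libraries (6.68% of all tested genes). It was 12 of 120 without the filter (4 higher, 8 lower, against 4.95% of all genes). By DESeq2 it was 14 of 120 (5 higher, 9 lower, against 3.83%), and in the 8 libraries 1 of 47 (2.95%). With 1 library left out it was 0 to 7: 0 without WT2, 1 without DEL5, 2 without DEL6 or WT3, and 3 without DEL2 or DEL4. The share of all genes in each of those fits was not computed, so this range is not a result about the members. Without the filter 1 member had groups that did not overlap, Ugt1a2, a gene too low to test, named after its values were seen. It was lower in the deletion, at 0.10 for wildtype over deletion in the authors' deposited table, without an adjusted p there. The share of all genes without the filter that did not overlap was not computed, so this count is not a result about the members. Samples of the same number did not stand out as alike (same-number correlations -0.147 to 0.358, 0 of 6 matching best with their own number). Low correlations cannot show that the animals were unpaired. With the replicate block 6 members stood at an unadjusted p under 0.05, a level that 7.64% of all tested genes reached there. In that fit 71 genes were called in all, against 72. Of 436 recomputed log2 changes of 23 named genes, 421 kept their sign and 15 turned, in 5 genes. Cyp4b1 was -0.0216 by edgeR, -0.0164 by DESeq2 and -0.0981 in the 8 libraries, and Ugt2a2 was -0.000661 there. With 1 library left out the log2 change was -0.169 to 0.0321 for Cyp1a1, -0.00353 to 0.091 for Cyp2j6, -0.25 to 0.0837 for Cyp2r1, -0.0481 to 0.122 for Cyp4b1 and -0.0961 to 0.1004 for Ugt2a2. The cause was not tested. The ratio of the summed signals, deletion over wildtype, was 1.021 to 1.082 with 1 library left out. Of 22 tested members with a mean under 100, 5 had intervals within 1.5-fold.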
